A study of Mus musculus with 12 samples.

Results

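The genes described here are 10 immediate early genes of neurons, Fos, Fosb, Junb, Egr1, Egr2, Egr3, Egr4, Arc, Npas4 and Nr4a1, taken by name from the 20504 entries of the coding sequence (CDS) count table. All 10 were found there and in the exon count table of 23352 entries, and all 10 passed the filter on low counts (37 or more per library on average) in each comparison. Their values come from 12 libraries of 6 adult Camk2a-RiboTag mice, in which Cre driven by the Camk2a promoter adds a hemagglutinin (HA) tag to the ribosomal protein Rpl22 in forebrain excitatory neurons. All 6 mice carried the tag, so no mouse without it served as a control. Vehicle was given by oral gavage to mice A and B. A single oral dose of 100 mg/kg of AZD-8055, which blocks the ATP site of the kinase mTOR, was given to mice C and D. They were killed 1 h later, and the frontal lobe of each gave a ribosome footprint library and a poly(A) RNA-Seq library. The sample labels call mice A and B untreated, and the methods of the study name the vehicle. Mice E and F were untreated, and each gave RNA-Seq of homogenized brain (input) and of polysomes immunoprecipitated with the HA tag (IP). With 2 mice per group, p-values reflect only these mice, and the error of each gene rests in part on the spread shared across genes.

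Immediate early genes are transcribed within minutes of synaptic activity by transcription factors that are already present in the cell, chiefly CREB and the complex of SRF with its partners, so they need no new protein to switch on. Their mRNAs are short-lived, and in the brain they are used as a record of which neurons were recently active. Fos, Fosb and Junb are subunits of the dimeric transcription factor AP-1. Egr1 to Egr4 are zinc finger transcription factors that share a GC-rich binding site. Npas4 is a bHLH-PAS transcription factor that responds to calcium entry, Nr4a1 is an orphan nuclear receptor, and Arc is a cytoplasmic protein of dendrites that acts in the removal of AMPA receptors from synapses.

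RefSeq promoter windows (GRCm38.p6, the assembly also called mm10, which the submitters' processing notes name) were used for 7 of the 10 genes. Egr1, Egr3 and Arc were not part of this search. The 250 bases before the start were searched on both strands for 5 motifs. The core of the cAMP response element, the site of CREB, TGACG, was found in at least 1 window of all 7 genes, against 17.7% of the 32817 windows of the table. The members are counted by gene and the share is by window, and of the members only Egr2 has more than 1 window. The stretches that carry the match nearest to the start are shown because this was the motif that the 7 promoters shared, with 30 bases on each side and the motif in capitals (CGTCA where it lies on the other strand).
Fos: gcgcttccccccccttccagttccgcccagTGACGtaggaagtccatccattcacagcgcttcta
Fosb: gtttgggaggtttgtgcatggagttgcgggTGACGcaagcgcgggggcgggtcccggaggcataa
Junb: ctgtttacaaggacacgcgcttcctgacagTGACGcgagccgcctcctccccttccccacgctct
Egr2: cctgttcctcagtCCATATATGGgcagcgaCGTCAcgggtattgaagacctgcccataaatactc
Egr4: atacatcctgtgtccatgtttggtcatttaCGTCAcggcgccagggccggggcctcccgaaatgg
Npas4: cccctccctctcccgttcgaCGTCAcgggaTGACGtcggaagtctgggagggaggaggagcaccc
Nr4a1: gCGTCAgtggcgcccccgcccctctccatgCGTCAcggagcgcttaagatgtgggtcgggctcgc
These stretches lie at chr12:85473794-85473858 (plus strand), chr7:19310071-19310135 (minus strand), chr8:84978820-84978884 (minus strand), chr10:67537784-67537848 (plus strand), chr6:85513664-85513728 (minus strand), chr19:4990106-4990170 (minus strand) and chr15:101266776-101266840 (plus strand). The match lay closest to the start in Nr4a1, where it ended 36 bases before it, and farthest in Npas4, where it ended 165 bases before it. Npas4 and Nr4a1 each hold 2 matches within the stretch shown. Egr2 has 5 windows, of which 3 hold TGACG, and its stretch also holds a CArG box, the site of SRF (CC, a run of A or T, then GG), between 72 and 63 bases before the start. Within the 250 bases searched, the CArG box was found in no other of the 7 genes and in 1.47% of all windows. Sites farther from the start, and those of Egr1, Egr3 and Arc, were not searched, so an absence here does not mean that a gene lacks the site. The full element TGACGTCA, which contains TGACG on both strands, was found in no window of the members and in 1.55% of all windows. The EGR site GCGTGGGCG (0.536% of all windows) and the AP-1 site TGANTCA (6.75%) were also found in none of the members' windows. A match is a run of letters and was not tested as a binding site.

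The tissue RNA-Seq libraries held between 9395385 and 15585831 counts on CDS, the IP libraries 9309496 and 9975629, and the footprint libraries between 3503873 and 9259938, and the 10 genes together took between 0.0718% and 0.133% of them. Markers of excitatory neurons, astrocytes, oligodendrocytes and microglia were detected in every tissue library, so the values are those of mixed tissue, in which fewer cells of a type and less RNA per cell cannot be told apart. Libraries of 1 group differed by more than counting error, with chi-square statistics per degree of freedom between 2.61 and 17.4. As a check of the drug, 20 mRNAs with a terminal oligopyrimidine start, the known targets of mTOR, were compared between mice C and D and mice A and B. Their footprints fell in 20 of 20 (median log2 change −1.19), and their RNA passed in 0 of 20, also at an unadjusted p under 0.05. The choroid plexus markers stood apart in vehicle mouse B, whose RNA held 1070 CPM (counts in a library scaled to 1000000) of the 5 together against 35.2 in mouse A, 82.6 in mouse C and 49.2 in mouse D.

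Across the RNA-Seq of tissue from all 6 mice, 5 of the 10 genes were higher in every mouse that had been gavaged (A to D) than in both untreated mice (E and F), and 0 were lower in all of them. Of all 12419 genes, 21.7% were higher in this way and 22.2% were lower. Egr4 had the widest separation. It lay between 65.0 and 79.4 CPM in mice A to D against 36.2 CPM in mouse E and 33.3 CPM in mouse F, a mean ratio of 2.05. Egr2 lay between 10.1 and 17.2 CPM in the gavaged mice against 6.72 and 7.55 CPM, a ratio of 1.99. Over the same 6 values, which include this separation, the SDs of the log2 level were 0.54 for Egr4 and 0.57 for Egr2. The median SD over all genes was 0.17. The SDs of Fos, Fosb, Arc and Npas4 were between 0.39 and 0.47, and those of Junb, Egr1, Egr3 and Nr4a1 between 0.089 and 0.33. Fos lay between 40.1 and 52.3 CPM against 25.7 and 34.4 CPM, and its ratio was 1.57. Egr1 was between 310.0 and 385 CPM against 260 and 208 CPM, and Junb between 69.5 and 83.9 CPM against 56.4 and 55.5 CPM. The same 5 genes did not overlap in exon counts. The groups overlapped for Fosb, Egr3, Arc, Npas4 and Nr4a1. Npas4 was the single gene whose mean was lower in mice A to D, at a ratio of 0.711, with 42.8 CPM in mouse E and 50.8 CPM in mouse F. Nr4a1 varied least of the 10, with 134 to 158 CPM over all 6 mice, an SD of 0.089 on the log2 scale at the 12.7th percentile of all genes. Marker levels also differed between the 2 sets of mice. Markers of striatal projection neurons summed to 1789, 1730, 1978 and 2134 CPM of RNA in mice A to D. In mice E and F they summed to 1116 and 927 CPM. Those of excitatory neurons summed to 4415, 4383, 4802 and 4412 CPM in mice A to D against 5398 and 5031 CPM. The 2 sets belong to separate experiments. What else differed between these, the mix of tissue included, cannot be told apart from the gavage, so no test was run on this separation.

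**Figure D1:**
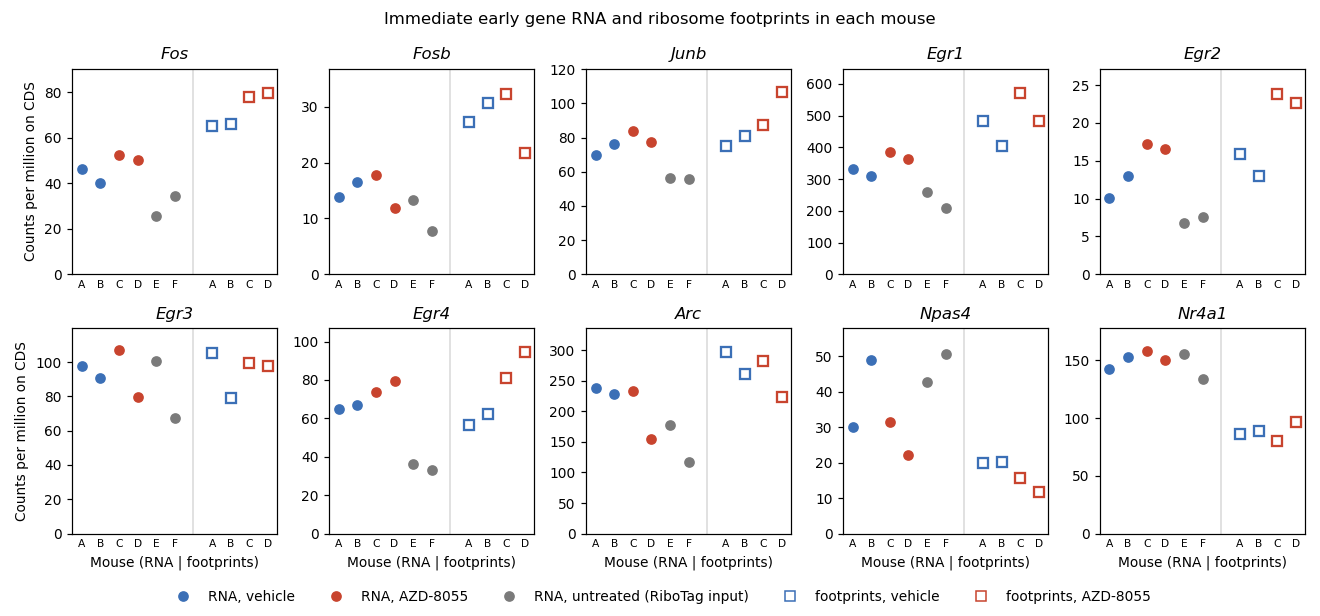
CPM on CDS (y axis, from 0) of each gene in each mouse (x axis), with RNA as filled circles for mice A to F and footprints as open squares for mice A to D, in blue for vehicle, red for AZD-8055 and grey for untreated mice. Egr4 RNA lies between 65.0 and 79.4 CPM in mice A to D and at 36.2 and 33.3 CPM in mice E and F, and both AZD-8055 footprint points of Egr4 lie above both vehicle points.

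The comparison of mice C and D with mice A and B asked whether 1 h of mTOR inhibition moved the mRNA or the footprints of these genes. After TMM scaling (a normalization by the trimmed mean of gene ratios) and the quasi-likelihood test of edgeR, with p adjusted by Benjamini-Hochberg, 0 of the 10 mRNAs changed at an adjusted p under 0.05, while 0.148% of the 12182 genes tested did. At an unadjusted p under 0.05 there were 5 of the 10 against 8.24% of all genes, and DESeq2 gave 0 at the adjusted and 2 at the unadjusted threshold. For footprints 1 of the 10 passed, Egr4, against 1.03% of the 10695 genes tested in either direction and 0.0468% in the higher direction. At an unadjusted p under 0.05 edgeR had 6 of the 10 footprint changes, against 12.8% of all genes, and DESeq2 had 4. When 1 mouse was left out, 1 of the 10 mRNAs passed without mouse A (0.27% of all genes) and 1 without mouse C (0.181%), and 4 of the 10 footprint changes passed without mouse C (7.63%) and 2 without mouse D (2.47%). None of the 10 passed in either measure without mouse B, in RNA without mouse D, or in footprints without mouse A. The RNA of 5 genes was higher in both AZD-8055 mice than in both vehicle mice (19.3% of all genes) and that of 0 was lower (19.6%). The footprints of 4 were higher (21.6%) and those of 1 were lower (22.5%). RNA and footprint libraries come from the same mice, so these counts are not independent of each other.

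Among the AP-1 subunits, Fos RNA was at 46.2 and 39.9 CPM in vehicle mice A and B and at 52.1 and 50.1 CPM in AZD-8055 mice C and D. Its footprints were at 65.4 and 66.0 CPM in the vehicle mice and at 77.9 and 79.6 CPM after the drug. Neither pair of groups overlapped, but the log2 changes of 0.25 ± 0.10 (SE) in RNA and 0.26 ± 0.09 in footprints did not pass, with adjusted p of 0.531 and 0.297. Junb, which pairs with Fos proteins, had RNA of 69.3 and 76.1 CPM under vehicle and 83.6 and 77.5 CPM under AZD-8055. Junb footprints were at 74.7 and 80.9 CPM and then at 87.5 and 107 CPM, again without overlap. The Junb footprint change was 0.34 ± 0.11 (adjusted p = 0.252), and it passed when mouse C was left out (0.46, adjusted p = 0.00101). Without mouse C, however, 355 genes were called higher and 482 lower in footprints, against 5 and 105 with all 4 mice, and without mouse D the Junb change was 0.18 (adjusted p = 0.66). Fosb, whose truncated form accumulates after repeated stimulation, overlapped in both measures. Fosb RNA was at 13.9 and 16.4 CPM under vehicle and at 17.8 and 11.9 CPM under AZD-8055, a log2 change of −0.03 ± 0.19 that turned to 0.23 without mouse D. Mouse D had the lowest Fosb level in footprints as well, at 21.7 CPM against 27.2, 30.8 and 32.3 CPM in mice A, B and C.

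The EGR family held the highest log2 changes. Egr4 footprints rose from 56.7 and 62.2 CPM in mice A and B to 81.1 and 94.4 CPM in mice C and D. The groups did not overlap, and the change of 0.58 ± 0.11 on the log2 scale (1.49-fold) passed edgeR's test (adjusted p = 0.0341) and DESeq2's (adjusted p = 0.0228). This call was lost without vehicle mouse A (0.51, adjusted p = 0.414) and without vehicle mouse B (0.63, adjusted p = 0.259), and it held without mouse C (0.68, adjusted p = 1.235e-06) and without mouse D (0.46, adjusted p = 0.0201). Egr4 RNA was at 64.8 and 66.6 CPM and then at 73.5 and 79.3 CPM, a change of 0.22 ± 0.08 that did not pass (adjusted p = 0.466). Egr2, which acts in myelinating Schwann cells and in the hindbrain as well as in active neurons, had the highest log2 change of the 10 in RNA and in footprints. Its RNA was at 10.1 and 12.9 CPM under vehicle and at 17.1 and 16.5 CPM under AZD-8055. Its footprints were at 15.9 and 12.9 CPM and then at 23.8 and 22.6 CPM. Neither pair overlapped, yet at 58 to 175 counts per library the changes of 0.55 ± 0.16 in RNA and 0.66 ± 0.17 in footprints had adjusted p of 0.308 and 0.152.

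Egr1, the most widely used activity marker of the family, had RNA of 330.3 and 309 CPM in the vehicle mice and of 384 and 361 CPM in the AZD-8055 mice. Its footprints overlapped, at 482 and 404 CPM under vehicle against 571 and 481 CPM. The changes were 0.22 ± 0.07 in RNA (adjusted p = 0.338) and 0.24 ± 0.10 in footprints (adjusted p = 0.363), and the footprint change passed without mouse D (0.36, adjusted p = 0.0013) but was 0.12 without mouse B (adjusted p = 0.798) and 0.12 without mouse C (adjusted p = 0.477). Egr3, a factor needed for muscle spindles that is also induced in cortex, overlapped in both. Its RNA was at 97.5 and 90.2 CPM against 107 and 79.4 CPM, and its changes of −0.02 ± 0.11 in RNA and 0.08 ± 0.12 in footprints were within their errors of 0. Of the family, the RNA of Egr1, Egr2 and Egr4 did not overlap between the groups and that of Egr3 did.

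Arc and Npas4 lay on the other side of 0. Npas4 RNA was at 30.1 and 48.9 CPM in mice A and B and at 31.4 and 22.2 CPM in mice C and D. Npas4 footprints were at 19.8 and 20.1 CPM under vehicle and at 15.7 and 11.6 CPM under AZD-8055. The RNA overlapped because vehicle mouse A lay below mouse C, and the footprints did not overlap. The log2 changes were −0.57 ± 0.19 in both measures, with adjusted p of 0.389 in RNA and 0.269 in footprints. The RNA change passed without mouse A (−0.87, adjusted p = 0.0464), was −0.83 without mouse C (adjusted p = 0.127) and −0.34 without mouse D (adjusted p = 0.805), and was −0.17 without mouse B (adjusted p = 0.83). The footprint change passed without mouse C (−0.78, adjusted p = 0.0229), the fit with 355 higher and 482 lower calls, and was −0.34 without mouse D (adjusted p = 0.688). Arc RNA was at 237 and 228 CPM against 233 and 154 CPM, and Arc footprints were at 297 and 261 CPM against 283 and 223 CPM. Here mouse D alone was low. The RNA change of −0.27 ± 0.13 (adjusted p = 0.625) was −0.59 without mouse C (adjusted p = 0.00881) and 0.0018 without mouse D. Arc footprints likewise passed without mouse C (−0.33, adjusted p = 0.00989) and were at 0.017 without mouse D (adjusted p = 0.977). Nr4a1 RNA was at 142 and 152 CPM against 157 and 149.7 CPM, and its footprints at 85.8 and 88.7 CPM against 80.0 and 96.3 CPM, so that both overlapped and both changes (0.06 ± 0.07 and 0.03 ± 0.10) were within 1 SE of 0.

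**Figure D2:**
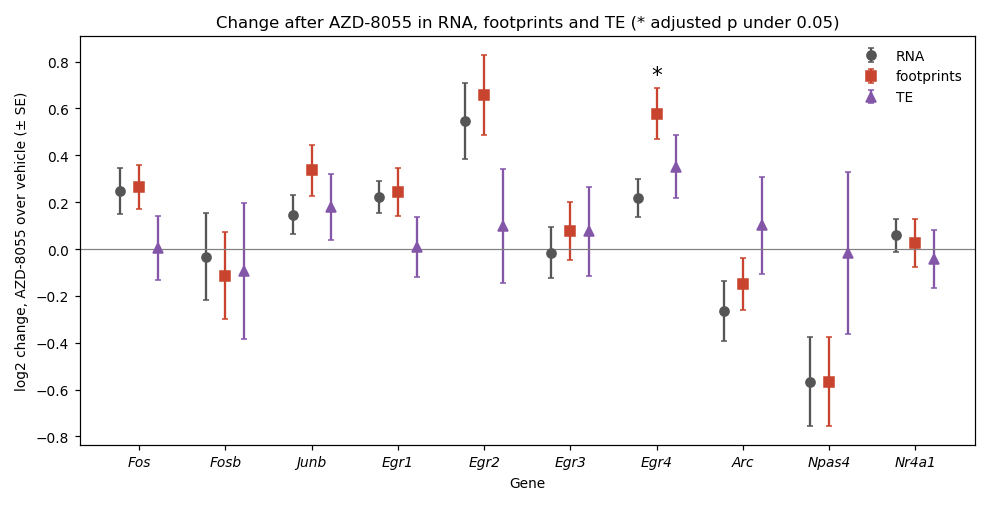
Log2 change after AZD-8055 (y axis, AZD-8055 over vehicle, bars show ± SE, n = 2 mice per group) of each gene (x axis) in RNA (grey circles), footprints (red squares) and TE (purple triangles), with an asterisk where the change passed. The single asterisk stands over the footprints of Egr4 at 0.58, Egr2 is highest in RNA at 0.55 and in footprints at 0.66, and Npas4 is lowest in both at −0.57.

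Translational efficiency (TE) is the footprint level over the RNA level, so a change in TE is a change in footprints beyond that in RNA. Under a test of the interaction in edgeR with calls at an adjusted p under 0.05 and over 2-fold, 0 of the 10 changed in TE against 0.323% of the 10531 genes tested, and 0 passed without the limit on the fold. At an unadjusted p under 0.05 there was 1 of the 10, against 7.3% of all genes, and DESeq2 had 1. This was Egr4, with a TE change of 0.35 ± 0.13 (unadjusted p = 0.0197, adjusted p = 0.518). The other 9 lay between −0.09 ± 0.29 (Fosb) and 0.18 ± 0.14 (Junb). Npas4 had the widest error, with −0.02 ± 0.34. The median TE change of the 10 was 0.04 against −0.01 over all genes, while 16 of the 20 oligopyrimidine mRNAs were called lower in TE (median −1.17). A TE change of that size was not seen in any of the 10.

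Other genes of the pathway were grouped in lists by role. Of 43 further rapid primary response genes tested, 3 rose in RNA and 0 fell, with a list median of −0.01 against −0.00346 over all genes. Cyr61, a secreted matrix protein, rose by 1.13 ± 0.17 (adjusted p = 0.0076), and the phosphatases Dusp1 and Dusp6, which switch off MAP kinases, rose by 0.54 ± 0.09 and 0.49 ± 0.09 (adjusted p of 0.0306 and 0.0291). Dusp6 also rose in footprints (0.61 ± 0.09, adjusted p = 0.00512), as 1 of 37 tested. None of 9 family members and partners, 19 delayed activity genes and 33 upstream regulators passed in RNA, with 1, 2 and 3 at an unadjusted p under 0.05 and medians of 0.11, 0.02 and 0.01, and DESeq2 called 0 of them. In footprints 0 of 8, 0 of 19 and 0 of 32 passed, with 2, 5 and 3 at the unadjusted threshold, and DESeq2 called 1 delayed gene. In TE, 0 of 36 rapid genes, 0 of 8 partners, 0 of 19 delayed genes and 0 of 32 regulators were called by either tool, with 2, 0, 2 and 3 at the unadjusted threshold.

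Markers of cell types moved between the same mice. The 9 measured markers of striatal projection neurons, which were summed to 1789 and 1730 CPM of RNA in mice A and B and to 1978 and 2134 CPM in mice C and D, all had RNA changes above 0 (median 0.23), with 1 of the 9 called higher by edgeR and 1 by DESeq2, and 7 at an unadjusted p under 0.05. The summed striatal footprints were 1763 and 1807 CPM under vehicle and 1922 and 2215 CPM under AZD-8055, with 0 of 9 called by either tool and 5 at an unadjusted p under 0.05. None of the 9 was at 0. Markers of excitatory neurons were summed to 4415 and 4383 CPM of RNA against 4802 and 4412 CPM, a median change of 0.05, with 0 of 9 called by either tool and 3 at an unadjusted p under 0.05 (2 by DESeq2). Those of inhibitory neurons, astrocytes, oligodendrocytes and their precursors, microglia and endothelial cells had median RNA changes between −0.11 and 0.04, with 0 called by either tool and 2, 0, 0, 0, 1 and 2 at an unadjusted p under 0.05, and of 7 blood markers 4 were at 0 in every library and 1 could be tested (−0.01). The 3 choroid plexus markers tested had a median RNA change of −1.69, with the high level in mouse B given above. The part of these differences in the values of the 10 genes was not tested.

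TE in the vehicle mice was computed as the ratio of footprint to RNA counts after scaling by DESeq2 size factors, for 10882 genes with at least 75 counts of both kinds. The 10 genes lay between 1.02 (Fosb) and −0.87 (Npas4) on the log2 scale, with a median of 0.25 against 0.016 over all genes, whose SD was 0.99. In both mice 6 of the 10 lay above the median of all genes and 3 lay below it, and each of these shares was 45.6% over all genes. No correction for length was made, since both measures count the same CDS, and whether CDS length affects the ratio was not tested.

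The AP-1 subunits were at 1.08 and 0.95 (mice A and B) for Fosb, at 0.61 and 0.77 for Fos and at 0.22 and 0.13 for Junb. Fosb had the highest TE of the 10, at the 88.1st percentile of all genes with a mean of 1.02 ± 0.10 (SD, n = 2), and its values did not overlap those of any other member. Fos and Egr1 followed at the 78.7th and 73.6th percentiles. Egr1 was at 0.65 and 0.43, which overlapped the values of Fos. Egr2 had the widest spread among the EGR genes, 0.76 in mouse A and 0.05 in mouse B, so its place in the order is not set by 2 mice. Arc was at 0.43 and 0.23, a mean of 0.33 ± 0.14 (SD). Egr3 was at 0.22 and −0.15 and Egr4 at −0.08 and −0.06, both near the median of all genes. From Fos down to Egr4, the means of neighbours in this order differed by 0.16 or less, against spreads (SD) of 0.02 to 0.51 between the mice.

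Nr4a1 and Npas4 stood below the other 8. Nr4a1 was at −0.62 in mouse A and −0.74 in mouse B, a mean of −0.68 ± 0.09 (SD) at the 23.4th percentile. Npas4 was at −0.49 and −1.24, a mean of −0.87 ± 0.53 at the 18.1st percentile, and the values of Nr4a1 lay inside its range. In the AZD-8055 mice Npas4 was at −0.93 and −0.90 and Nr4a1 at −0.91 and −0.60. Fosb was again highest after the drug, at 0.93 and 0.91, which is the 85.9th percentile of 9906 genes. Egr4 moved from the 46.3rd percentile under vehicle to the 60.1st, at 0.21 and 0.29 in mice C and D, and its test is the one given above. The Fos mean of 0.69 ± 0.11 (SD) under vehicle and 0.68 ± 0.04 after the drug differed by less than either spread.

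**Figure D3:**
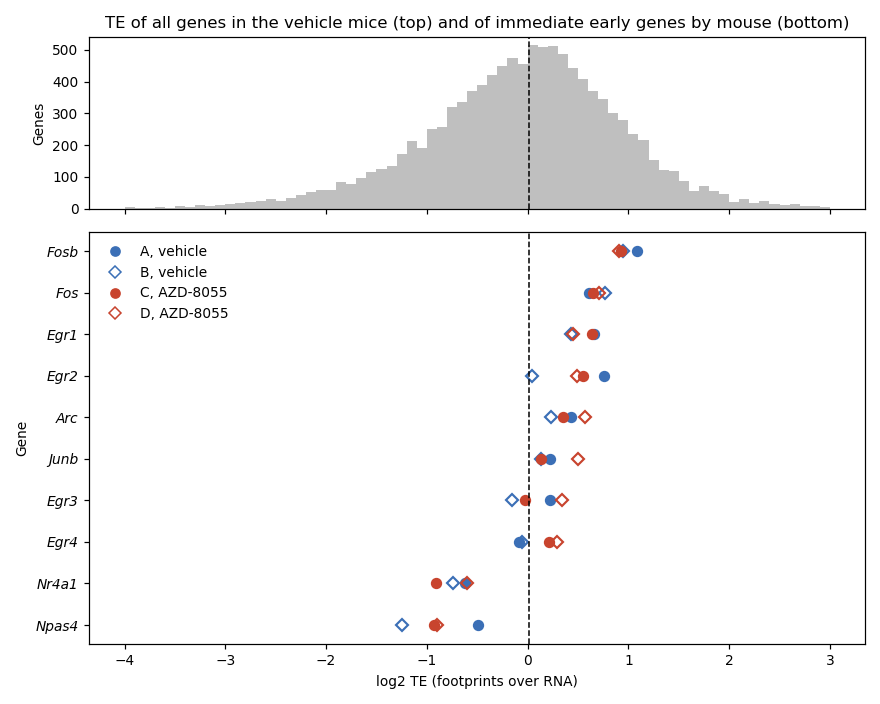
Log2 TE (x axis) of 10882 genes in the vehicle mice as a histogram (top, number of genes, with 31 genes outside the range not drawn) and of each of the 10 genes in each mouse (bottom, blue for vehicle, red for AZD-8055, filled circles for A and C, open diamonds for B and D), with the median of all genes as a dashed line. Fosb is farthest to the right at 1.08 and 0.95 under vehicle, and Nr4a1 and Npas4 lie to the left of the line in all 4 mice.

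The RiboTag comparison asked which mRNAs were carried by ribosomes of Camk2a-expressing neurons more than in the whole tissue. The IP held markers of excitatory neurons, with 8 of 9 above input in both mice (medians of 0.75 and 0.88 on the log2 scale). All markers of inhibitory neurons, astrocytes, oligodendrocytes, microglia and endothelial cells lay below input. Markers of striatal projection neurons were split. Of these 9, 3 lay above input in both mice and 3 lay below it in both. Their median log2 ratio was 0.15 for E but −0.27 for F, so the IP was not cleared of this cell type. In exon counts, 8 of the 10 genes were above input in both mice and 2 were below, against 46.3% and 46.6% of all 13254 genes. With calls at an adjusted p under 0.05 and over 2-fold, 3 of the 10 rose, where 11.7% of all genes did, and 0 fell, where 21.8% did. Without the limit on the fold, 6 rose (33.7% of all genes) and 0 fell (35.7%). The median of the 10 was 0.63 against −0.03 over all genes tested. The 20 oligopyrimidine mRNAs, which were not chosen as markers of a cell type, had a median of 0.77. Without the limit on the fold 18 of these 20 rose and 1 fell, and with it 1 rose and 0 fell. What part the type of cell has in the rise of the 10 genes was not tested.

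Egr4 was most enriched. Its exon level went from 26.8 CPM in the input of mouse E to 71.1 CPM in the IP and from 23.8 to 64.9 CPM in mouse F, a log2 change of 1.42 ± 0.11 (SE, adjusted p = 0.000136). Junb went from 44.4 to 113 CPM in mouse E and from 39.7 to 90.7 CPM in mouse F (1.27 ± 0.14, adjusted p = 0.000349). Fos went from 24.3 to 56.0 CPM and from 32.3 to 57.6 CPM, which at 1.00 ± 0.15 lay at the limit of 2-fold (adjusted p = 0.00143), and it fell under that limit with a stricter filter of at least 100 counts (0.94). The input and IP libraries of these 3 genes did not overlap, nor did those of Egr1, Egr2 and Nr4a1 (higher in IP) and Npas4 (lower). The share of all genes without such overlap was not computed.

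Egr1, Nr4a1 and Egr2 passed the adjusted p but not the fold. Egr1 was at 263 and 216 CPM in the inputs and at 515 and 399 CPM in the IPs of mice E and F (0.94 ± 0.16, adjusted p = 0.00212). Nr4a1 was at 101 and 85.5 CPM against 167 and 113 CPM (0.58 ± 0.19, adjusted p = 0.0348), and Egr2 at 7.67 and 8.47 CPM against 13.0 and 10.3 CPM (0.52 ± 0.18, adjusted p = 0.0415). Egr2 missed the threshold in DESeq2 (adjusted p = 0.0588) and with a mean of at least 100 counts (adjusted p = 0.0636). Arc and Fosb were above input within each mouse, but the mice differed in level and their libraries overlapped. Arc went from 250.4 to 403 CPM in mouse E and from 165 to 216 CPM in mouse F (0.57 ± 0.32, adjusted p = 0.149). Fosb was at 25.6 and 40.3 CPM in mouse E and at 13.4 and 21.6 CPM in mouse F (0.67 ± 0.38, adjusted p = 0.160).

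Egr3 and Npas4 were the 2 genes below input in both mice. Egr3 was at 64.6 CPM in input and 50.0 CPM in IP for mouse E and at 41.2 and 27.1 CPM for mouse F (−0.46 ± 0.32, adjusted p = 0.245). Npas4 was at 26.3 and 22.3 CPM and at 29.8 and 26.0 CPM (−0.22 ± 0.13, adjusted p = 0.173). Since input and IP of 1 mouse come from the same brain, the mouse was also fitted as a replicate block. With the block and no limit on the fold all 10 passed, 8 higher and 2 lower, in a fit that called 39.4% of all genes higher and 41.5% lower. Egr3 (−0.48 ± 0.09, adjusted p = 2.8e-06) and Npas4 (−0.22 ± 0.10, adjusted p = 0.0363) were then lower, and Arc (0.54 ± 0.07, adjusted p = 2.78e-10) and Fosb (0.67 ± 0.10, adjusted p = 2.96e-08) were higher. With the block and the limit of 2-fold the count was again 3. The blocked fit leaves 1 residual degree of freedom per gene, so its errors rest mainly on the spread shared across genes.

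**Figure D4:**
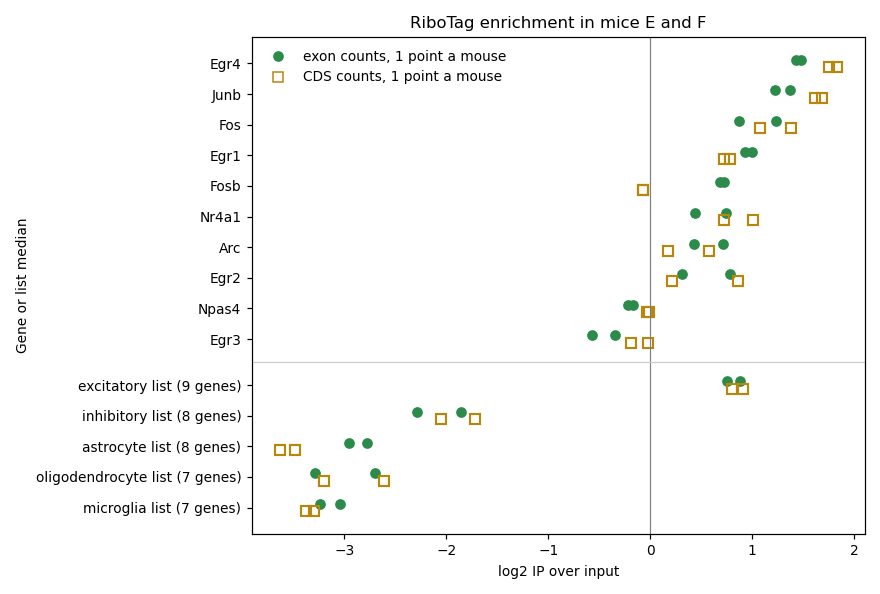
Log2 of IP over input (x axis) for each of the 10 genes and for the medians of 5 marker lists (y axis), with 1 point for each of mice E and F from exon counts (green circles) and from CDS counts (open squares). Egr4 and Junb lie at 1.23 or above in exon counts, Npas4 and Egr3 lie below 0, and the Fosb points move from 0.68 and 0.72 in exon counts to −0.07 in CDS counts.

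The choice of counts changed 1 direction. On CDS counts Fosb was at −0.07 in both mice, and edgeR's estimate turned from 0.67 to −0.11 ± 0.34 (adjusted p = 0.773). Egr4 (1.74), Junb (1.60) and Fos (1.16) were called over 2-fold on CDS as well. Egr1, Egr2 and Arc were lower on CDS than on exons, at 0.70, 0.50 and 0.38, while Nr4a1 was higher at 0.83. The genes below input lay closer to 0 on CDS counts, with Egr3 at −0.14 ± 0.26 (adjusted p = 0.652) and Npas4 at −0.07 ± 0.15 (adjusted p = 0.676).

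The difference between the tables is given here as the share of exon counts that were not counted on the CDS. These can be reads on untranslated exons or on exons that the CDS annotation leaves out. Reads across a CDS edge, which a strict intersection drops from the CDS counts, also fall here. In 387 entries the CDS counts were above the exon counts, so this share is approximate. In Fosb this share went from 72.5% to 87.9% between input and IP of mouse E and from 70.5% to 88.2% in mouse F. In mice A to D it was between 70.7% and 77.4%, so both IP libraries stood above every tissue library. For Arc the inputs had 62.4% and 64.0% and the IPs 74.8% and 79.0%. In Egr1 it was 47.6% and 51.0% against 66.8% and 70.6%. All 10 genes had a higher share in both IPs than in all 6 tissue libraries, and so did 68.7% of 12139 genes, whose median share went from 32.1% to 45.8% in mouse E and from 33.2% to 49.5% in mouse F.

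The size of this shift varied among the 10 genes. On the scale of log2 exon over CDS counts, Fosb shifted by 1.25 (89.0th percentile of 12141 genes), Egr1 by 0.70 and Arc by 0.68 (72.1st and 71.2nd percentiles). Junb (0.13), Egr3 (0.14) and Egr4 (0.15) shifted least, at the 33.3rd to 34.9th percentiles, and 4 of the 10 lay above the median shift of 0.32. The shares were steady across tissue, with a range over the 6 tissue libraries of 3.22 percentage points in Egr3 and 9.01 in Egr2, the gene with the fewest counts. For Npas4 the inputs had 13.9% and 13.7% and the IPs 27.7% and 33.3%. Whether library preparation or the RNA itself moved these shares was not tested.

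**Figure D5:**
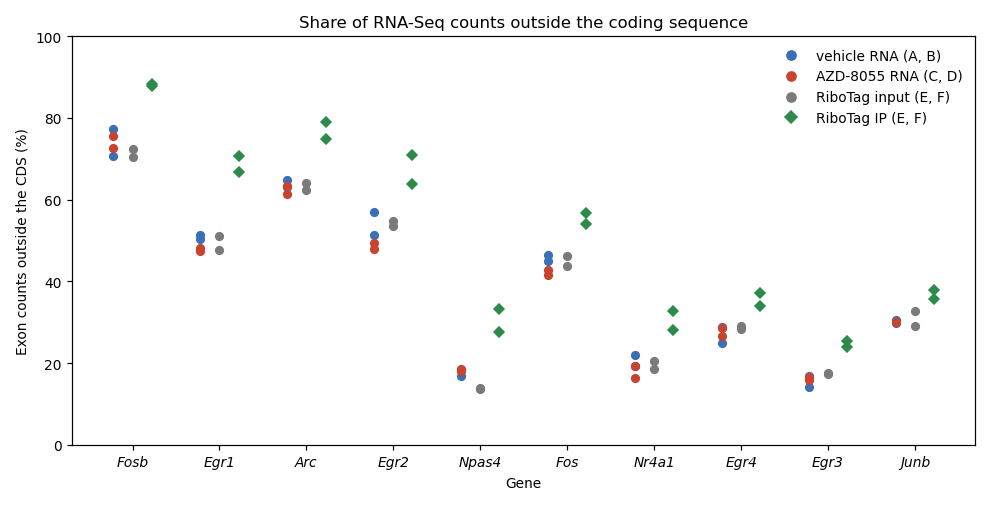
Share of exon counts outside the CDS (y axis, percent, 0 to 100) for each gene (x axis) in tissue RNA of vehicle (blue), AZD-8055 (red) and untreated mice (grey) and in the RiboTag IP (green diamonds), 1 point per library. Both green points lie above all 6 tissue points in every gene, from Fosb at 87.9% and 88.2% down to Egr3 at 24.0% and 25.5%.

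Genes related to the 10 lay on both sides of the input in the IP. At an adjusted p under 0.05 and over 2-fold, 11.7% of all genes were called higher and 21.8% lower. Of 8 family members and partners, Jund, a constitutive AP-1 subunit, rose (1.52 ± 0.12, adjusted p = 0.000123) and Nr4a3, a nuclear receptor related to Nr4a1, fell (−1.56 ± 0.44, adjusted p = 0.0182). Of 43 other rapid genes 6 rose and 7 fell, with a median of 0.26. Among those that rose were Gadd45b (1.35) and Gadd45g (1.39), stress-induced proteins that act in DNA demethylation, the transcription factor Cebpb (1.64) and Ier3 (1.63). Among those that fell were Arl5b (−2.87), the mRNA decay factor Zfp36 (−1.88), the adhesion protein Amigo3 (−1.27) and Tiparp (−1.41). Of 19 delayed genes 3 rose, the growth factor Bdnf (1.06), Nptx2 (1.27) and Nrn1 (1.07), and 4 fell, Npy (−2.51), Sst (−1.99), Inhba (−2.08) and Pcsk1 (−1.11). Npy and Sst encode peptides of inhibitory neurons. Of 33 upstream regulators Map2k1, a MAP kinase kinase, rose (1.00) and 6 fell, among them the factor Mef2a (−1.67), the kinases Rps6ka3 (−1.44) and Rps6ka5 (−1.12) and the coactivator Crebbp (−1.48).

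The genes whose RNA was most like the mean of the 10 over the 6 tissue libraries were Btbd2, Plekhm2, Pou3f1, Gpr27, Fam108a, Rpl32, Chst2, Zscan2, Akt1 and Frs3, with Pearson's r between 0.983 and 0.995 across 6 libraries. This is a description, since the mean profile mainly separates mice A to D (0.052 to 0.285 on a centred log2 scale) from mice E (−0.20) and F (−0.37), which differ in library set. The 10 members themselves correlated with their own mean between −0.47 (Npas4) and 0.95 (Junb), and the next lowest was Egr3 at 0.64. With exon counts 2 of the 10 named genes were named again.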

How the data were processed

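RNA-Seq and ribosome footprint libraries were deposited as raw read counts per gene, in a CDS table of all 12 libraries and an exon table of the 8 RNA-Seq libraries. The authors trimmed the footprint reads, removed rRNA reads with Bowtie2, used TopHat2 for alignment and HTSeq (strict intersection) for counting, without normalization. Per the labels' processing notes the build was mm10. The annotation, tool versions and use of strand are not given in the sources used here.

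Counts were fitted across all genes with a mean of at least 37 per library with edgeR 4.0.16 in R 4.3.3 (TMM, quasi-likelihood test, p adjusted by Benjamini-Hochberg with a threshold of 0.05). RNA, footprint and TE changes used CDS counts of mice A to D, and the IP used exon counts of mice E and F. TE and IP calls also needed a change over 2-fold. DESeq2 1.42.0 gave size factors for the TE and enrichment ratios and an alternative test. CPM values are TMM-scaled within each comparison, and marker sums are unscaled CPM on CDS. Promoters were searched and figures drawn in Python 3.11.15 with matplotlib 3.10.9. The fits were tested on simulated data.

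The mouse letters pair the libraries because libraries with 1 letter come from 1 mouse. Deviations from the group means correlated across genes at 0.259 (vehicle RNA and footprints), 0.241 (AZD-8055) and 0.561 (input and IP). The mouse was therefore also fitted as a replicate block.

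The 10 genes and the lists were chosen with earlier results of these data known. All 10 genes are named, and of each list up to 4 genes per direction that passed with the smallest p. A result that this rule covers is not reported here.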

Additional observations from a re-analysis of the deposited data

How the results depend on the processing

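The counts of called members were equal with DESeq2 in place of edgeR, with DESeq2 size factors and with the other count table (exon for RNA, CDS for the IP). In the IP 4 members were called with no filter on low counts, which added Egr1 (1.02), and 2 with a mean of at least 100 counts, which lost Fos, against 3. Leaving out 1 mouse moved them to between 0 and 1 in RNA and between 0 and 4 in footprints, where the remaining mouse of the group is assumed to vary like the others, and the median baseline TE to between 0.087 and 0.33. Over the same fits the log2 RNA change lay between −0.59 and 0.0018 for Arc, −0.24 and 0.18 for Egr3 and −0.35 and 0.23 for Fosb. The footprint change lay between −0.33 and 0.017 for Arc, −0.095 and 0.32 for Egr3, −0.40 and 0.17 for Fosb and −0.12 and 0.14 for Nr4a1. The TE change lay between −0.0034 and 0.26 for Arc, −0.075 and 0.10 for Egr1, −0.22 and 0.45 for Egr2, −0.12 and 0.29 for Egr3, −0.10 and 0.099 for Fos, −0.040 and 0.37 for Junb, −0.42 and 0.29 for Npas4 and −0.23 and 0.11 for Nr4a1. Directions also turned for Egr3 RNA with exon counts (0.022), for Nr4a1 footprints (−0.012) and for the TE of Fos (−0.051) and Egr1 (−0.043) with no filter on low counts, and for Fosb in the IP with CDS counts (−0.11). The cause was not tested. Over all genes, leaving out 1 mouse gave 3 to 13 higher and 10 to 29 lower calls in RNA (7 and 11 with all mice), 2 to 355 and 61 to 482 in footprints (5 and 105, the highest without mouse C), and 0 to 4 higher calls in TE (0). DESeq2 called 21 genes lower in RNA and 13 higher in footprints. With no filter there were 30 higher and 48 lower calls in RNA, 60 and 204 in footprints and 13 higher in TE, and a mean of at least 100 counts gave 21 higher in footprints. With the replicate block TE had 6 higher calls, and with the block and no limit on the fold 34 higher and 119 lower, while 0 of the 10 were called in either. Without the limit alone TE had 10 higher and 96 lower. In the IP there were 4463 higher and 4731 lower calls without the limit, with 6 of the 10 members, 5224 and 5502 with the block as well, with 10 members, and on CDS counts 2493 higher with the limit and 4455 and 4766 without it, with 5 members. The block and CDS fits without a limit on the fold were chosen after seeing the data. Leaving out mouse E or F leaves no spread for a test of the IP. Of the 10 genes named as most like the members, 2 were named again with exon counts and 0 to 4 when 1 mouse was left out. Depth limits Egr2, Fosb and Npas4 most, which had as few as 58, 103 and 54 footprints in a library.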
